A study of Mus musculus with 36 samples.

Results

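The 9 Hoxd genes of the mouse, Hoxd1, Hoxd3, Hoxd4, Hoxd8, Hoxd9, Hoxd10, Hoxd11, Hoxd12 and Hoxd13, were followed through 16 microdissected regions of the caudal embryo. Members were taken by symbol from the deposited table, and they were 9 of its 30869 gene symbols. They had 11 of the 45281 probes, with a pair each for Hoxd9 and Hoxd12. All 11 passed the filter for low values (detection p-value below 0.01 on at least 1 array), as did 21712 probes in all.

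Amplified RNA of wild-type MF1 embryos was measured on 36 arrays of the type Illumina MouseWG-6 v2.0. The E7.5 regions, from the headfold stage, were anterior (A, 3 arrays), posterior (P, 2) and proximal posterior (PP, 2). The E8.5 regions, at 2 to 5 somites, were rostral node (RN, 2), node-streak border (NSB, 3), caudal lateral epiblast (CLE, 3), anterior streak (St1, 2) and posterior streak (St5, 2). The chordoneural hinge (CNH), a part of the tail bud, was taken at E9.5 (22 to 25 somites, 2 arrays), E10.5 (32 to 35, 2), E11.5 (40 to 45, 3), E12.5 (50 to 55, 2) and E13.5 (60 to 63, 2), and the piece posterior to it (P-CNH) at E9.5, E10.5 and E11.5 with 2 arrays each. Each array held a pool of 6 to 74 pieces. In bulk samples such as these, fewer cells of a type and less RNA per cell cannot be told apart. No mutant or treated embryo was included.

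Hox genes encode homeodomain transcription factors that give cells along the body axis their position. They lie in clusters, and in a cluster the genes tend to be switched on in the order of their places, from the 3′ end, with Hoxd1, to the 5′ end, with Hoxd13. In the mouse, genes at the 3′ end are known from the hindbrain and anterior trunk, those of the middle from the trunk, and those at the 5′ end from the tail, limbs and genitalia.

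The deposited intensities were corrected for background and normalised, and values below are log2 intensities on that scale. A probe was counted as detected on an array where its deposited detection p-value was below 0.01. Probes bind with different strength, so Hoxd levels were compared within a probe and not between genes. In the lists of marker genes below, the brightest gene had the highest probe value, which does not compare amounts of RNA. The arrays came in 3 batches of 12. Batch 1 held RN, St1, St5, NSB replicates 1 and 2 and the E10.5 arrays, and the other arrays were in batches 2 and 3. Detected probes numbered 15481 to 16256 in batch 1, 11062 to 15388 in batch 2 and 10814 to 16241 in batch 3. The arrays with the fewest were replicate 2 of E13.5 CNH (10814), replicates 1 and 2 of CLE (11062 and 12289), replicate 1 of E11.5 P-CNH (12280) and replicate 1 of E7.5 P (13073). NSB replicate 3 was the array that linked batch 1 with the others, so a difference between St5 or E10.5 and a region outside batch 1 rested on it. The small number of arrays limited the precision, and all p-values measure only the spread between these pooled samples.

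The genes from Hoxd1 to Hoxd9 were detected at E7.5, and Hoxd10, Hoxd12 and Hoxd13 later. E7.5 was the first stage taken, so whether the former were on before it was not measured. Hoxd1, Hoxd3, Hoxd4, Hoxd8 and Hoxd9 were detected on both arrays of E7.5 PP, the earliest region in which any member was detected on all arrays. Hoxd10 was detected on all arrays of a region from E8.5, in St5. For Hoxd12 that day was E9.5, in CNH and P-CNH, by 1 probe (ILMN_2951852) and E10.5 by the other (ILMN_2740906). Hoxd13 reached it at E10.5, in CNH and P-CNH. The arrays differed in how low a value they could detect. The lowest value of a detected probe was 5.60 to 5.67 on the E10.5 arrays and 5.80 to 6.21 on the E9.5 arrays. The Hoxd13 values in E10.5 P-CNH (6.12 and 5.89) lay below that of both E9.5 CNH arrays (6.21 and 6.20). Hoxd1 in PP replicate 2 (5.87) likewise lay below that of all A arrays (5.91 to 6.24). The Hoxd11 probe was detected on 4 of 36 arrays and on all arrays of no region. Since the Hoxd12 probes gave different days, a day of detection depends on the probe as well as on the gene. Hoxd11 had 1 probe, so a weak probe and a gene with little RNA cannot be told apart. With detection on at least 1 array in place of all arrays, the day was E7.5 for Hoxd10 and E8.5 for Hoxd13, before Hoxd12 at E9.5, and 4 regions held Hoxd11.

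**Figure D1:**
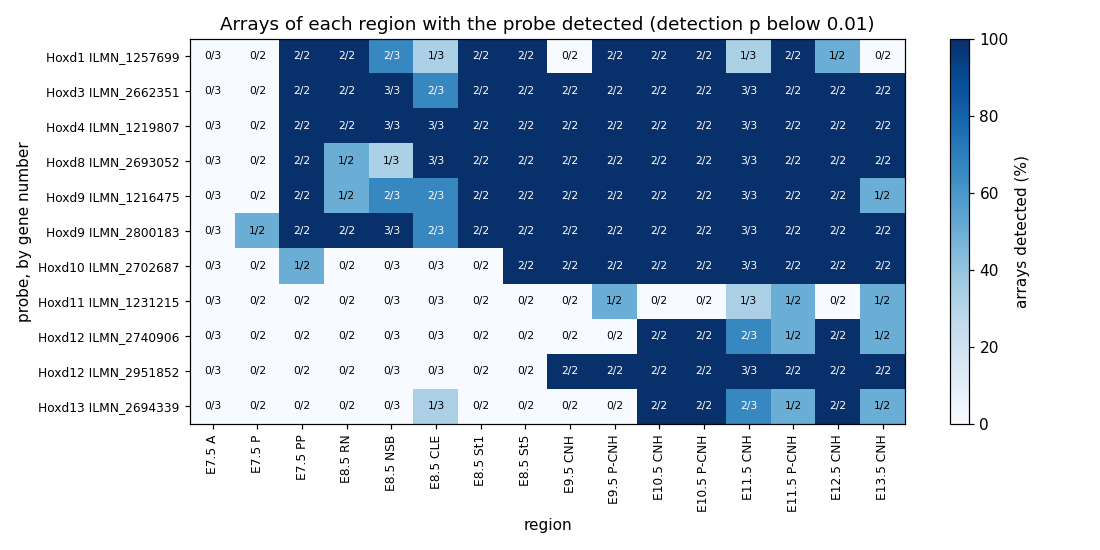
Number of arrays with detection p-value below 0.01 in each region, with the 11 probes by gene number from Hoxd1 (top) to Hoxd13 (bottom) and the 16 regions by stage; colour gives the percentage of arrays. Detection on both arrays of E7.5 PP covered the probes from Hoxd1 to Hoxd9, and the ILMN_2951852 probe of Hoxd12 was detected on all 17 tail bud arrays and none of the 19 earlier ones.

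RefSeq held promoter windows of 300 bases (250 before to 50 after a gene's start) for all 9 genes, 10 windows in all, on the + strand of chromosome 2 in the build GRCm38.p6. The windows were searched on both strands for TTTATG, a form of the site that Cdx proteins, caudal homeodomain factors of the same tissue, are known to bind. It was found in 3 of 10 Hoxd windows (30%) and in 3893 of all 32851 windows (11.9%). The windows with a match belonged to Hoxd3, Hoxd4 and Hoxd11. Of the genes below, Hoxd3 and Hoxd4 were at like levels in all E8.5 regions, and Hoxd10 was detected at E8.5 in St5 alone, so these 3 windows are shown, with TTTATG in capitals. They lie at chr2:74711743-74712042 (Hoxd3), chr2:74721728-74722027 (Hoxd4) and chr2:74691641-74691940 (Hoxd10).
Hoxd3: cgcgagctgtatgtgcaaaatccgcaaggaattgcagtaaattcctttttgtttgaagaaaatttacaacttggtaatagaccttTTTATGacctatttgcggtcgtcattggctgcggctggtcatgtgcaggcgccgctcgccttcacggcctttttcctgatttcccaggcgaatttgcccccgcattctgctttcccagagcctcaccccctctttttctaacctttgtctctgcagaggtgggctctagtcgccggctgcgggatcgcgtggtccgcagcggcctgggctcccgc
Hoxd4: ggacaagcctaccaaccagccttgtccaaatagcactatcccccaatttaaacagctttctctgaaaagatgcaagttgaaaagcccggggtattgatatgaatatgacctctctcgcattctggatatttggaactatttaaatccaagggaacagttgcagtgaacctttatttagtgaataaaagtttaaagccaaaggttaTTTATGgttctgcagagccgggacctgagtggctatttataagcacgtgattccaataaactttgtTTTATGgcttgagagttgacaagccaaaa
Hoxd10: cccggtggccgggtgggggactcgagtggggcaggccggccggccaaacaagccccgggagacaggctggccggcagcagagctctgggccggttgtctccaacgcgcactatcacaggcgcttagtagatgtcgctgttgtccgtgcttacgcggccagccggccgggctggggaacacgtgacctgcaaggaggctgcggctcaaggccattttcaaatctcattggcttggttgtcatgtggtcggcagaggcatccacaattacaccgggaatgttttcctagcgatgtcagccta
The Hoxd4 window held 2 matches and 4 CpG, and a Hoxd11 window also held 4 CpG, with 1 match. Hoxd windows ranged from 4 to 37 CpG. The Hoxd3 window held 1 match and 20 CpG, and the Hoxd10 window 0 matches and 22 CpG. The median over all windows was 7 CpG. A match is a description of these letters, and binding was not measured. The 3 windows shown were picked by level at E8.5. Of the others, those of Hoxd1, Hoxd8, Hoxd9, Hoxd12 and Hoxd13 held 0 matches, and Hoxd11, with a match, was undetected at E8.5. A link between matches and levels was not tested.

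Hoxd1, the member at the 3′ end, had a level that went up and down with region and day. It was undetected on all arrays of E7.5 A and P (4.58 to 5.02) and read 6.24 and 5.87 in PP. At E8.5, St5 read 8.30 and 8.30, and the other 10 arrays lay between 4.73 and 6.52 with a median of 6.30. St5 was above every other E8.5 array. In the tail bud it was undetected in E9.5 CNH (5.83 and 5.78), read 8.54 and 8.83 in E10.5 CNH and 9.07 and 9.17 in E10.5 P-CNH, and was detected on 1 of 3 E11.5 CNH arrays (7.04, against 5.76 and 4.87 undetected). It was also detected in E9.5 P-CNH (6.13 and 7.53), in E11.5 P-CNH (6.81 and 6.43) and on 1 of 2 E12.5 arrays (7.08, against 5.46 undetected). The E10.5 arrays, all in batch 1, had the highest values, and the steps to and from E10.5 CNH were not called. Neither E13.5 array (4.74 and 5.55) had it detected.

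Hoxd3 and Hoxd4, which stand next to each other and belong to the groups that pattern the hindbrain and neck, rose early and stayed on. Hoxd3 was undetected in E7.5 A and P (4.45 to 5.20), read 6.10 and 6.24 in PP, and lay between 6.66 and 7.53 on the 10 E8.5 arrays other than St5, which itself read 7.08 and 7.23. Over the 17 tail bud arrays it lay between 7.72 and 9.93 with a median of 9.20. No tail bud array of Hoxd3 was as low as the highest E8.5 array. Hoxd4 was undetected in A (4.47, 4.67 and 4.56) and P (5.63 and 5.65), read 9.08 and 8.27 in PP, and lay between 9.66 and 10.82 on the other E8.5 arrays. St5, at 10.16 and 10.91, and the 17 tail bud arrays, at 9.73 to 11.90, overlapped that range. Hoxd4 had thus reached its E8.5 level in all 5 regions of that day, with PP in between.

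Hoxd8 and Hoxd9, the middle members, known from the trunk, set the caudal end of the streak apart. Hoxd8 was undetected in E7.5 A and P (4.61 to 4.93) and read 7.83 and 7.15 in PP. At E8.5 it read 5.32 and 6.70 in RN, 5.66, 5.81 and 5.32 in NSB, 7.42, 7.26 and 6.97 in CLE, 6.12 and 6.58 in St1 and 10.55 and 10.64 in St5. St5 was above all other E8.5 arrays and inside the range of the tail bud (8.94 to 10.99, median 10.33). For Hoxd9, the ILMN_2800183 probe read 4.62, 4.79 and 4.96 in A, 5.30 and 5.85 in P and 8.80 and 8.55 in PP. Its E8.5 values were 6.19 and 7.11 in RN, 5.97, 6.13 and 6.66 in NSB, 5.07, 8.53 and 8.17 in CLE, 6.64 and 6.55 in St1 and 11.55 and 11.31 in St5. CLE replicate 1 stood apart as the lowest E8.5 array of this probe, and St5 again overlapped the tail bud range (9.55 to 11.94) alone among E8.5 regions. The ILMN_1216475 probe of Hoxd9 was also highest in St5 at E8.5, with 11.48 and 11.30 in St5 and 4.56 to 7.99 in the rest of E8.5.

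Hoxd10, a member known from the lumbar cord and the limbs, was near background until St5. It was undetected on all 10 other E8.5 arrays (4.60 to 5.67) and on all arrays of A and P (4.61 to 4.87), and it read 5.75 (detected) and 5.35 (undetected) in PP. St5 read 8.24 and 9.01. The 17 tail bud arrays lay at 12.62 or above with a median of 13.12. St5 stood between the earlier arrays and the tail bud and overlapped neither.

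Of the members at the 5′ end, known from the tail, the hindlimb and the genitalia, Hoxd12 was first detected in the tail bud. Hoxd13 and Hoxd11 were detected on only a part of the tail bud arrays. Hoxd12 (ILMN_2951852) was undetected on all 19 arrays to E8.5 (4.49 to 5.39). It read 10.12 and 10.17 in E9.5 CNH, 9.45 and 8.15 in E9.5 P-CNH, and 12.13 and 12.01 in E10.5 CNH, and all arrays from E10.5 on lay between 11.98 and 12.53. The E9.5 arrays were the lowest of the tail bud and did not overlap the later ones. The other Hoxd12 probe (ILMN_2740906) was detected on 10 of 17 tail bud arrays, at up to 7.76. Hoxd13, the last gene of the cluster, was detected on 10 of 17 tail bud arrays, none of them at E9.5, and read 6.46 and 6.32 in E10.5 CNH and 7.61 and 6.68 in E12.5 CNH. Among earlier arrays it was detected on CLE replicate 1 alone (7.34, against 5.93 and 4.76 undetected in the other CLE replicates), the array with the lowest signal over background of all (2.28). Hoxd11 was detected on E9.5 P-CNH replicate 1 (5.87), E11.5 CNH replicate 1 (6.08), E11.5 P-CNH replicate 2 (5.90) and E13.5 CNH replicate 1 (6.34), and with all arrays it was called in no comparison.

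**Figure D2:**
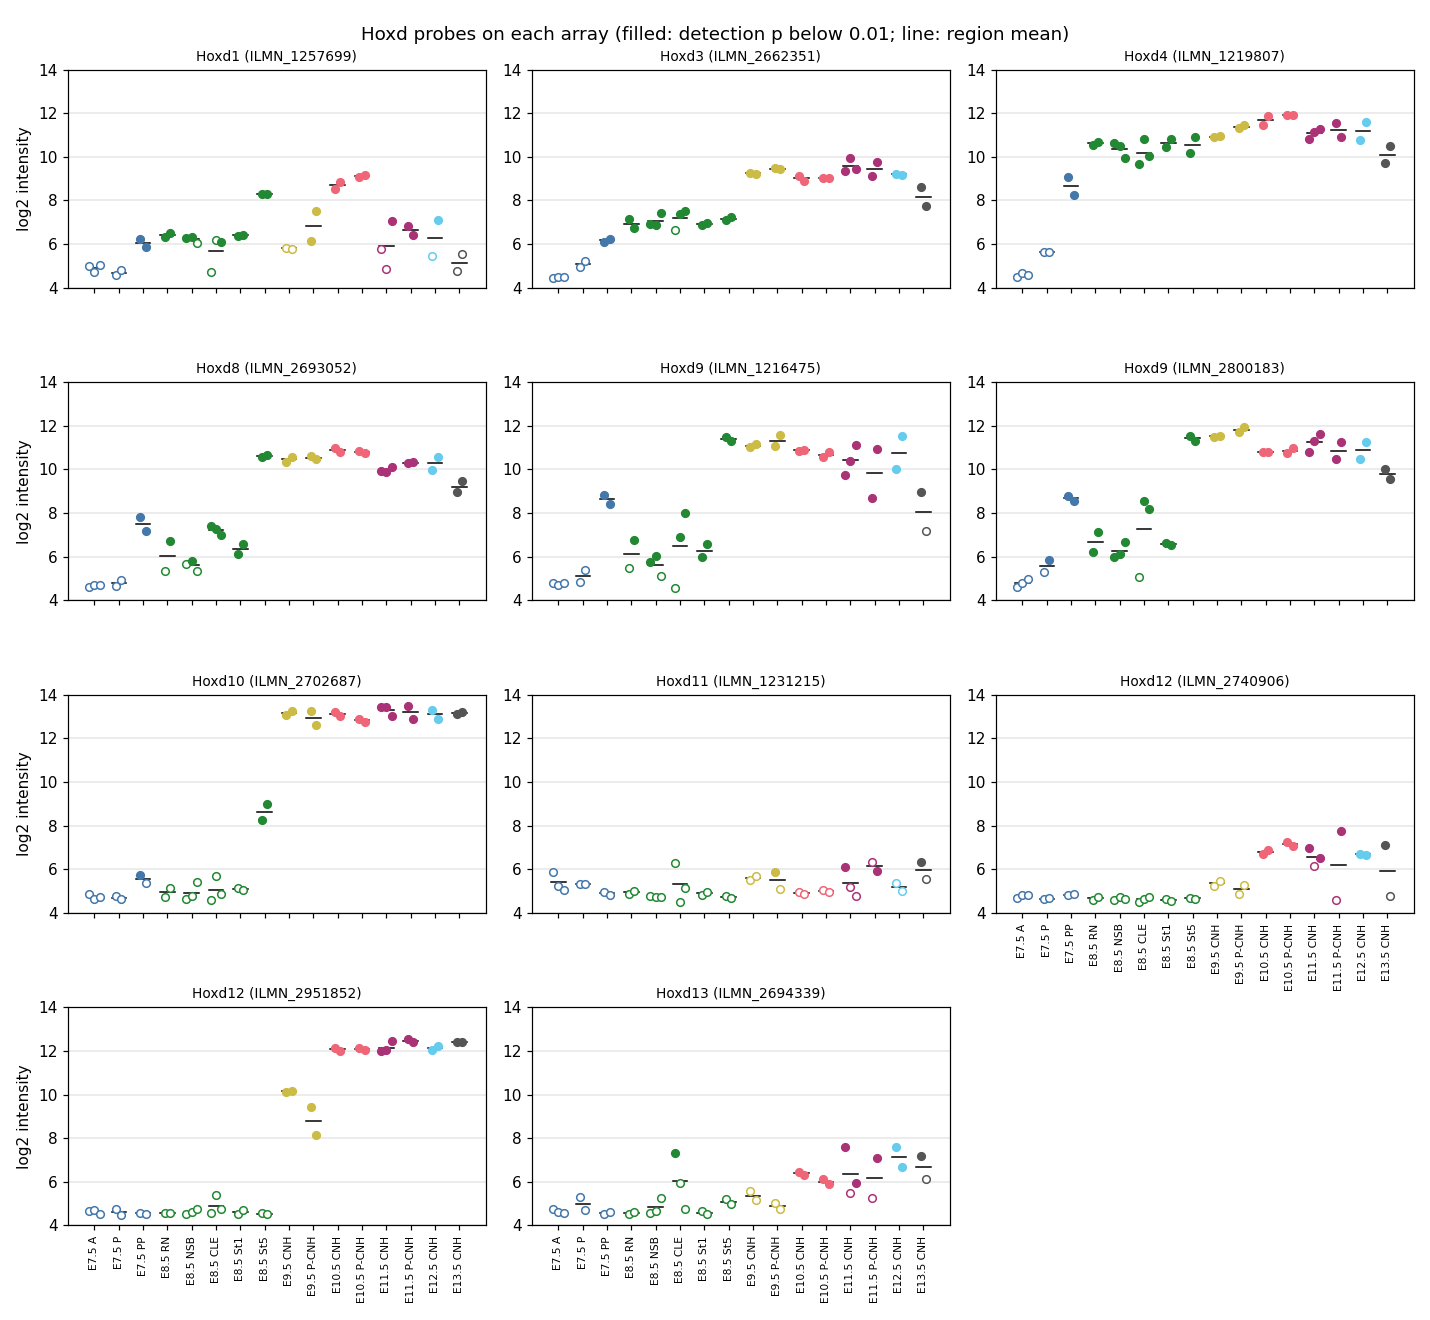
Log2 intensity of the 11 Hoxd probes on each of the 36 arrays, by region from E7.5 A to E13.5 CNH; filled points had detection p-value below 0.01, open points did not, and the line is the region mean. St5 stands above the other E8.5 regions for Hoxd1 (8.30 and 8.30), Hoxd8, Hoxd9 and Hoxd10, and the tail bud arrays stand highest for Hoxd10 (12.62 or above).

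St5 was set against RN, NSB, CLE and St1, averaged, to ask which members marked the caudal end of the streak. Hoxd8, Hoxd9, Hoxd10 and Hoxd1 were higher in St5, in both arrays and above all 10 others, whereas Hoxd3 and Hoxd4, at the same day, were not called. Differences here and below are log2 differences of the limma fit with batch as a term. Hoxd8 was higher by 4.16 (SE 0.280, adjusted p = 1.68e-09, 17.8-fold). Hoxd9 was higher by 4.87 (SE 0.495, adjusted p = 4.42e-07) by ILMN_2800183 and by 4.94 (SE 0.652, adjusted p = 1.68e-05) by ILMN_1216475. Hoxd10, undetected in the other regions, was at least 6.59-fold higher (adjusted p = 3.37e-09). The smallest of these differences was that of Hoxd1, 1.94 (SE 0.277, adjusted p = 4.96e-05). In all, 5 of 11 Hoxd probes were called higher (adjusted p at most 0.05 and fold at least 1.5), beside 592 of 21712 probes (2.73%), and 0 were called lower. The median difference was 0.38 over the Hoxd probes and -0.00 over all probes. Hoxd3 differed by 0.31 (adjusted p = 0.958) and Hoxd4 by -0.15 (adjusted p = 1), a sign that turned to 0.22 without St5 replicate 1.

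Against the E8.5 regions singly, the same contrast gave 5 Hoxd probes higher in St5 than in RN (2.46% of all probes), 5 than in NSB (2.12%), 4 than in CLE (1.08%) and 5 than in St1 (1.93%). The probe that was not called against CLE was ILMN_1216475 of Hoxd9 (3.86, adjusted p = 0.111), which was called without CLE replicate 3 or either E13.5 CNH array (adjusted p 0.031 to 0.0433). It was also called with no background correction, offset 100, cyclic loess, no batch term, batch removed before the fit, BeadChip as a block, without the 5 arrays with the fewest detected probes and with detected probes as a covariate (adjusted p 2.45e-05 to 0.0427). For Hoxd8 the difference from CLE was 2.93 (SE 0.490), and against NSB, where it was detected on 1 of 3 arrays, it was called (adjusted p = 3.17e-10). Hoxd1 was detected on 1 of 3 CLE arrays, so the size of its difference from CLE was not measured. The call was close to the threshold (adjusted p = 0.0395), and cyclic loess ended it (adjusted p = 0.281). With no batch term Hoxd1 was not called against RN (adjusted p = 0.051) or St1 (adjusted p = 0.0764), where 4 probes were called. Leaving out 1 array ended the call against CLE in 16 fits, with adjusted p of 0.0514 to 0.138. These were the fits without NSB replicate 1 or 2, CLE replicate 1 or 3, or any array of RN, St1, St5, E9.5 CNH, E10.5 CNH or E10.5 P-CNH. Within batch 1 alone, which held St5, RN, St1 and 2 NSB arrays, 5 Hoxd probes were higher in each comparison. Over all probes these fits called 3530 against RN, 3049 against NSB and 2706 against St1, in either direction. There the NSB comparison called Hoxd8 (adjusted p = 1.25e-06) and Hoxd10 (adjusted p = 2.18e-07). CLE had no array in batch 1.

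**Figure D3:**
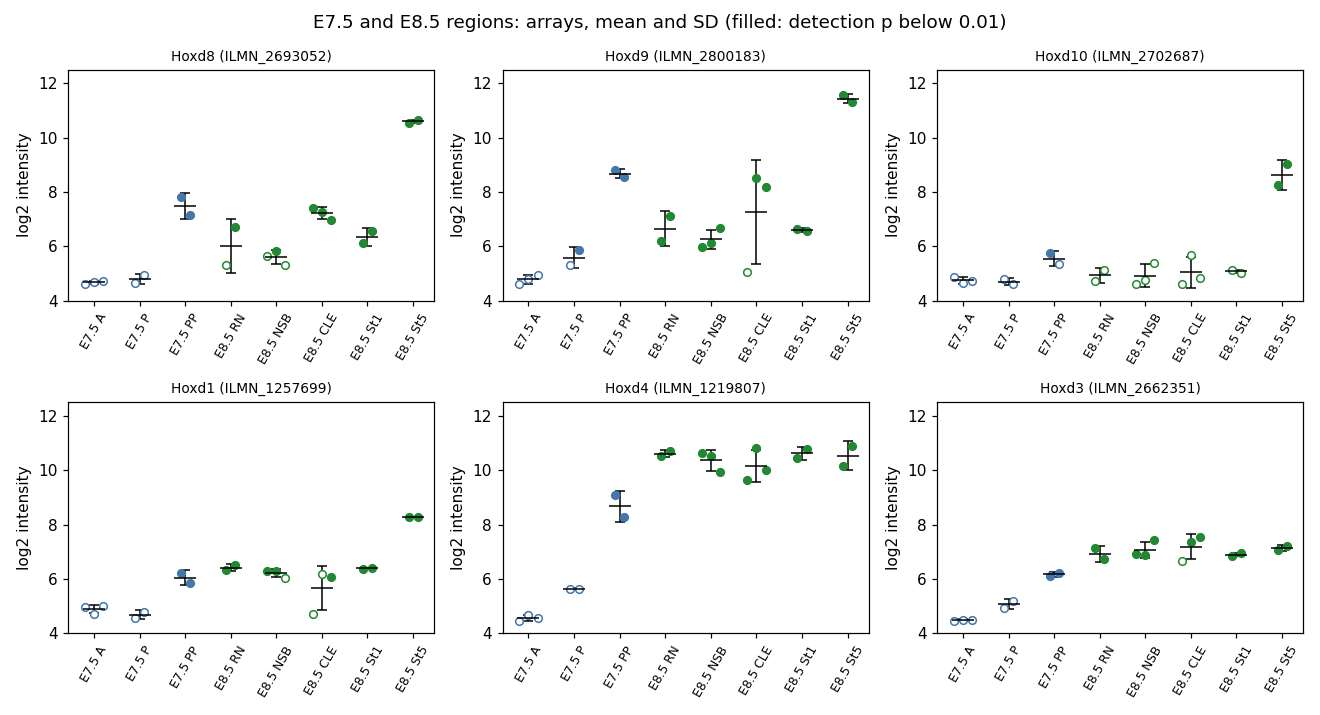
Log2 intensity of Hoxd8, Hoxd9 (ILMN_2800183), Hoxd10, Hoxd1, Hoxd4 and Hoxd3 on the arrays of the E7.5 and E8.5 regions; points are arrays (filled where detection p-value was below 0.01), the long line is the mean and the bar the SD. Hoxd8 in St5 (10.55 and 10.64) stands above all other E8.5 regions. In PP Hoxd8 (7.83 and 7.15) stands above RN, NSB and St1 and overlaps CLE (7.42, 7.26 and 6.97). Hoxd4 in St5 (10.16 and 10.91) overlaps the other E8.5 regions.

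Markers of other tissues moved with St5. Of the lateral and ventral mesoderm list (Hand1, Foxf1a, Tbx4, Pitx1, Isl1 and Bmp4), 8 of 8 probes of 6 genes were higher in St5 by the same contrast. The summed level of that list was 9074 to 11036 in St5, with Tbx4 the brightest gene, and 379 to 1698 in the other E8.5 regions, with Bmp4 the brightest and Hand1, Foxf1a and Pitx1 undetected on all their arrays. Of the endoderm list 1 of 9 probes was higher, Sox17 by 0.92, and Ttr was its brightest gene in St5 (summed level 2515 to 2575, with Apoa2 and Afp undetected). The node and notochord list had 4 of 7 probes lower in St5, where Noto was undetected, with a summed level of 329 to 363 against 4296 to 5477 in RN, 3335 to 4240 in NSB, 369 to 402 in St1 and 163 to 242 in CLE. Against RN and NSB singly 6 of 7 of its probes were lower, and against CLE and St1 limma called 0, with 3 and 1 at unadjusted p below 0.05. Singly, 3 of 9 endoderm probes were higher in St5 than in CLE, 2 of 5 streak and tail bud probes were higher than in RN and 1 of 5 lower than in St1, and 3 of 6 blood and 1 of 3 anterior neural probes were lower than in RN. The lateral and ventral mesoderm list had 8 of 8 higher against RN, NSB and St1 and 6 of 8 against CLE. Of the neural list, both probes of Sox2, the gene of it that was tested, were lower in St5, where it was undetected. Of the other lists limma called 0 probes in this contrast, with 0 at unadjusted p below 0.05 for blood and anterior neural markers and 1 each for surface ectoderm (brightest Cldn4, summed level 530 to 756) and for streak and tail bud (brightest Wnt3a, 15889 to 16463). The part of these tissues in the Hoxd differences was not tested.

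At E7.5 the question was whether the proximal end of the posterior region already differed. Hoxd4 and Hoxd8 were higher in PP than in P, where both were undetected. Hoxd4 was at least 4.51-fold higher (adjusted p = 0.000296). Hoxd8 was at least 2.47-fold higher (adjusted p = 0.000394). These 2 of 11 Hoxd probes stand beside 85 of all 21712 (0.391%). Neither Hoxd9 probe was called, although no P array reached a PP array. The fitted value was 2.25 (adjusted p = 0.125) by ILMN_2800183, detected on 1 of 2 P arrays. It was 2.74 (adjusted p = 0.171) by ILMN_1216475, undetected in P, so these sizes were not measured. Hoxd3 and Hoxd1, undetected in P and detected on both PP arrays, were not called, and their sizes were not measured. The fitted values were 1.12 for Hoxd3 (adjusted p = 0.138) and 0.18 for Hoxd1 (adjusted p = 0.908). For Hoxd1 the means were 6.05 in PP and 4.69 in P, and the fitted value turned to -0.06 with offset 100 and to -0.05 without A replicate 3. Both PP arrays were in batch 3 and both P arrays in batch 2, so that no batch held both regions, and the fit without batch 1 called 2 probes as well. Without CLE replicate 1, which entered through the batch term, 5 were called, with Hoxd9 (ILMN_2800183) at 2.82 (adjusted p = 0.000162).

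The anterior region served as a second reference at E7.5. Against A, where no Hoxd probe was detected, 5 Hoxd probes were higher in PP, beside 3.14% of all probes. They were Hoxd4 (at least 5.01-fold), Hoxd8 (at least 2.55-fold), both Hoxd9 probes (at least 4.15-fold by ILMN_2800183) and Hoxd3 (at least 1.08-fold, adjusted p = 0.000302). The call of Hoxd9 by ILMN_1216475 was lost without PP replicate 1 (adjusted p = 0.0749), and that of Hoxd3 with offset 100 (adjusted p = 0.0983). Between P and A, 1 Hoxd probe was called, beside 1.52% of all, and it was Hoxd4 (adjusted p = 0.0216). It was detected in neither region, so no size is given, and the call was lost without A replicate 1 or 3 or P replicate 1 or 2 (adjusted p 0.064 to 0.131). It was also lost with no background correction, offset 100, cyclic loess, no batch term and batches 2 and 3 alone (adjusted p 0.0913 to 0.575). Markers of other tissues differed from A as well. In PP, 5 of 5 streak and tail bud probes were higher (summed level 16724 to 27617, against 1342 to 2520 in A, T the brightest in both), with 5 of 9 of endoderm (18626 to 38512, against 2650 to 11700, Ttr the brightest in both), 5 of 8 of lateral and ventral mesoderm (2666 to 3294 with Bmp4 the brightest, against 926 to 1417 with Isl1) and 2 of 6 of surface ectoderm. Lower in PP were 3 of 3 anterior neural, 2 of 7 node and notochord and 1 of 2 neural probes. In P, 5 of 5 streak and tail bud, 1 of 9 endoderm and 1 of 8 lateral and ventral mesoderm probes were higher than in A, and 2 of 3 anterior neural and 2 of 7 node and notochord probes lower, and their part in the Hoxd differences was not tested.

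Some endoderm markers were also higher in PP. Of the endoderm list 2 of 9 probes were higher in PP than in P, Afp (at least 3.07-fold) and Rbp4 (at least 5.09-fold), both undetected in P. The summed level of the list was 18626 to 38512 in PP, with Ttr the brightest, and 6726 to 11296 in P, with Amn the brightest. From the lateral and ventral mesoderm list Hand1 was at least 2.76-fold higher, 1 probe of 8, with a summed level of 2666 to 3294 in PP and 1333 to 1480 in P and Pitx1 undetected in both. From the anterior neural list Otx2 was lower (-3.38), 1 probe of 3. Of the blood, surface ectoderm, node, neural and streak lists limma called 0 probes, with 0, 0, 3, 1 and 1 at unadjusted p below 0.05. Their part in the Hoxd differences was not tested.

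From E7.5 PP to E8.5 St5, the regions at the caudal end on successive days, Hoxd8 and Hoxd10 were higher. Hoxd8 rose by 2.69 (SE 0.504, adjusted p = 0.00699) and Hoxd10, detected on 1 of 2 PP arrays, rose as well (adjusted p = 0.000235), in both arrays of St5 over both of PP. These were 2 of 11 Hoxd probes, beside 103 of all (0.474%). Hoxd9 differed by 3.36 (adjusted p = 0.0703) by ILMN_2800183 and by 1.99 (adjusted p = 0.542) by ILMN_1216475, and Hoxd1 by 1.99 (adjusted p = 0.0557). Hoxd1 was called (adjusted p 0.0109 to 0.0497) without replicate 1 or 3 of A, replicate 1 or 2 of CLE, replicate 2 of E11.5 CNH or either array of E11.5 P-CNH or E13.5 CNH. No batch held both regions, and the count was 5 without CLE replicate 1 and 4 without CLE replicate 2 or either E13.5 CNH array. In this comparison 2 of 8 lateral and ventral mesoderm probes, both of Tbx4, were higher, and 2 of 9 endoderm probes were lower, and their part in the result was not tested.

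Whether the caudal difference itself changed from E7.5 to E8.5 was tested as a difference between contrasts, (St5 minus NSB) minus (PP minus P). P was a broad piece that included the primitive streak, and NSB was the node-streak border, so the references were unlike pieces. The fitted value was 2.98 for Hoxd10 (SE 0.475, adjusted p = 0.000756), 2.30 for Hoxd8 (SE 0.482, adjusted p = 0.0102) and -2.63 for Hoxd4 (SE 0.476, adjusted p = 0.00254). All 3 genes were undetected in P. In NSB Hoxd10 was undetected and Hoxd8 was detected on 1 of 3 arrays, so the size of these changes was not measured. For Hoxd4 the NSB arrays (9.94 to 10.64) overlapped those of St5. The Hoxd4 call ended with no background correction (-1.54, adjusted p = 0.0843), with offset 100 (-1.50, adjusted p = 0.0662), with cyclic loess (adjusted p = 0.0658) and with batch differences removed before the fit (-2.01, adjusted p = 0.0697). With cyclic loess Hoxd8 (adjusted p = 0.0885) and Hoxd10 (adjusted p = 0.055) were not called either. These 3 Hoxd probes stand beside 385 of all probes (1.77%). By the same test 5 of 8 lateral and ventral mesoderm probes and 1 of 3 anterior neural probes were higher, 4 of 7 node and notochord probes and 1 of 9 endoderm probes were lower, and their part in the result was not tested. The Hoxd8 call was lost without PP replicate 2, NSB replicate 1 or St5 replicate 2 (adjusted p up to 0.0736). The count was 5 without A replicate 3, E13.5 CNH replicate 1 or E13.5 CNH replicate 2.

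The regions that hold the progenitors of the axis were then followed over time, from E7.5 P to E8.5 NSB and the CNH. Between P and NSB, Hoxd4 and Hoxd3 rose, each from undetected in P. Hoxd4 was at least 10.8-fold higher (adjusted p = 3.3e-06). Hoxd3 was at least 2.01-fold higher (adjusted p = 0.000621). These were 2 of 11 Hoxd probes, beside 407 of all (1.87%), and all 3 NSB arrays lay above both P arrays. The difference rested on batches 2 and 3 through NSB replicate 3, and without batch 1 the same count of 2 was found. Of the node and notochord list 4 of 7 probes were higher in NSB (summed level 3335 to 4240, against 724 to 783 in P, Shh the brightest in both). Of the endoderm list 2 of 9 were lower, Apob and Amn (1177 to 1853 with Sox17 the brightest, against 6726 to 11296 with Amn). Hbb-bh1 was higher (1 of 6 blood probes), and Isl1 (1 of 8 lateral and ventral mesoderm probes) and Otx2 (1 of 3 anterior neural probes) were lower. Their part in the result was not tested.

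From E8.5 NSB to E9.5 CNH Hoxd3, Hoxd8, Hoxd9, Hoxd10 and Hoxd12 (ILMN_2951852) rose. Hoxd10, undetected in NSB, was at least 103-fold higher (adjusted p = 5.08e-11). Hoxd12 (ILMN_2951852), also undetected there, was at least 17.5-fold higher (adjusted p = 2.75e-09). Hoxd8, detected on 1 of 3 NSB arrays, rose as well (adjusted p = 1.5e-08), and Hoxd9 rose by 5.71 (SE 0.752, adjusted p = 2.01e-05) by ILMN_2800183. Hoxd3 rose by 1.80 (SE 0.384, adjusted p = 0.00513). With the other Hoxd9 probe (6.78) these were 6 of 11 Hoxd probes, beside 444 of all (2.04%), and all CNH arrays lay above all NSB arrays for each. Hoxd4 differed by 1.43 (adjusted p = 0.0502) and Hoxd1 by 0.95 (adjusted p = 0.253), a sign that turned to -0.40 with no batch term. Hoxd1 was called without A replicate 3 (1.18, adjusted p = 0.044) and with batch removed before the fit (1.53, adjusted p = 0.00203). Hoxd4 was called (adjusted p 0.0313 to 0.0491) without replicate 2 or 3 of A or CLE, replicate 2 of E11.5 CNH, or any array of PP, St5, E9.5 P-CNH or E11.5 P-CNH. In batches 2 and 3 alone 5 probes were called, without Hoxd3 (adjusted p = 0.0503), whose call also ended with cyclic loess normalisation.

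Blood markers moved with the tail bud. Of the blood list (Hbb-y, Hbb-bh1, Hba-x and Alas2) 5 of 6 probes were higher in E9.5 CNH than in NSB. Its summed level was 26872 to 27259 in E9.5 CNH, with Hbb-y the brightest, and 287 to 591 in NSB, with Hbb-bh1 the brightest and Hbb-y and Alas2 undetected. Lower were 2 of 9 endoderm, 1 of 6 surface ectoderm and 1 of 3 anterior neural probes. Their part in the Hoxd differences was not tested. In E9.5 P-CNH the summed level was lower (3092 to 5672), and Hoxd10 read 13.28 and 12.62 and Hoxd8 read 10.63 and 10.46. Hoxd12 (ILMN_2951852) read 9.45 and 8.15 there, against 10.12 and 10.17 in E9.5 CNH. What part blood had in these values was not tested.

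With CLE in place of NSB, 7 Hoxd probes were higher in E9.5 CNH, beside 5.37% of all probes. Hoxd10 was at least 93.6-fold and Hoxd12 (ILMN_2951852) at least 12-fold higher. Hoxd4 was called as well (1.06, adjusted p = 0.0331), and this call ended without CLE replicate 1 or 3 or either E9.5 CNH array (adjusted p up to 0.213) and in batches 2 and 3 alone, where 6 probes were called. From E7.5 P to E9.5 CNH, all within batch 2, 8 Hoxd probes of 7 genes were higher, beside 1008 of all (4.64%). Hoxd10 was at least 138-fold, Hoxd4 at least 29.3-fold, Hoxd8 at least 21.1-fold, Hoxd12 (ILMN_2951852) at least 17-fold and Hoxd3 at least 9.05-fold higher. Batch 2 alone gave 7 probes, beside 2143 of all in either direction, without Hoxd1 (adjusted p = 0.0672). Hoxd1 was detected in neither region, so no size is given, and its call ended without any of the 4 arrays of P and E9.5 CNH. Against CLE, 6 of 6 blood probes were higher in E9.5 CNH (26872 to 27259, against 100 to 202 in CLE, where all 4 genes were undetected), as were 6 of 7 node and notochord probes (1775 to 1916, against 163 to 242) and 1 each of surface ectoderm and of lateral and ventral mesoderm. Against P, 5 of 6 blood probes (137 to 178 in P), 1 of 7 node and notochord probes and 1 of 5 streak and tail bud probes were higher. Lower than in P were 7 of 9 endoderm probes (297 to 303, all genes undetected, against 6726 to 11296), 2 of 8 of lateral and ventral mesoderm, 1 of 6 of surface ectoderm and 1 of 3 anterior neural probes. It was not tested what part these tissues had in the Hoxd differences.

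Between E8.5 NSB and E10.5 CNH, a comparison that lies within batch 1 apart from NSB replicate 3, 9 of 11 Hoxd probes of 7 genes were higher, beside 769 of all (3.54%). Hoxd10 was at least 148-fold and Hoxd12 (ILMN_2951852) at least 72.3-fold higher. Hoxd8, detected on 1 of 3 NSB arrays, rose as well (adjusted p = 7.02e-11). Hoxd9 rose by 4.75 (SE 0.563, adjusted p = 2.63e-06) by ILMN_2800183 and by 4.99 by ILMN_1216475. Hoxd1 rose by 2.39 (SE 0.315, adjusted p = 1.18e-05) and Hoxd3 by 2.12 (SE 0.288, adjusted p = 1.74e-05). Hoxd4 (1.10, adjusted p = 0.033) and the other Hoxd12 probe (at least 1.82-fold, adjusted p = 0.039) were close to the threshold. Each of these calls was lost without NSB replicate 1 or 2 or either E10.5 CNH array, with adjusted p up to 0.341 for Hoxd4 and 0.226 for Hoxd12. The Hoxd4 call was also lost with cyclic loess (adjusted p = 0.217), batch removed before the fit (adjusted p = 0.131) and no filter (adjusted p = 0.0504), and the Hoxd12 call with no background correction, offset 100 and no filter (adjusted p 0.0622 to 0.105). Hoxd13, undetected in NSB, was not called with all arrays (adjusted p = 0.0578). In batch 1 alone it was called (adjusted p = 1.27e-06), and 10 Hoxd probes were higher there, beside 4282 of all called in either direction. Hoxd13 was called as well with cyclic loess (adjusted p = 0.00681), with batch removed before the fit (adjusted p = 0.0415) and without the 5 arrays with the fewest detected probes (adjusted p = 0.00455). It was also called (adjusted p 0.0226 to 0.0375) without replicate 1 or 3 of CLE, replicate 1 or 2 of E11.5 CNH or either E11.5 P-CNH array. In E10.5 CNH 4 of 6 blood probes were higher (22191 to 22229, against 287 to 591 in NSB), as was 1 of 5 streak and tail bud probes. Lower were 4 of 9 endoderm probes (331 to 428, against 1177 to 1853, Sox17 the brightest in both), 1 of 8 of lateral and ventral mesoderm and 1 of 3 anterior neural probes, and their part in the result was not tested.

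The CNH was then compared day by day. From E9.5 to E10.5 limma called 0 Hoxd probes, with 3 at unadjusted p below 0.05, beside 16 of all probes (0.0737%). The Hoxd12 difference of 2.10 (adjusted p = 0.11, ILMN_2951852) was called without CLE replicate 2 or E9.5 P-CNH replicate 1 or 2 (1.89 to 2.18, adjusted p 0.0399 to 0.0413). It was also called with no background correction, offset 100, no batch term, batch removed before the fit, BeadChip as a block, no filter and without the 5 arrays with the fewest detected probes (adjusted p 3.4e-06 to 0.0445). The count of Hoxd probes was 2 in 4 of these fits and 1 in the other 3. Hoxd1, undetected at E9.5, was called with no batch term (adjusted p = 0.00677) and with BeadChip as a block (adjusted p = 0.00759). With all arrays Hoxd1 differed by 1.45 (adjusted p = 0.468) on that day and by -1.75 (adjusted p = 0.386) from E10.5 to E11.5. From E10.5 to E11.5 limma called 0 Hoxd probes, with 1 at unadjusted p below 0.05, beside 18 of all (0.0829%). The count was 1, Hoxd1, lower at E11.5, with offset 100 (-1.27, adjusted p = 0.0337), no batch term (-2.80, adjusted p = 0.00281) and BeadChip as a block (-2.23, adjusted p = 0.00462). From E11.5 to E12.5 it called 0, with 0 at unadjusted p below 0.05, beside 49 of all (0.226%). The counts over all probes moved with the settings, up to 905 from E9.5 to E10.5 and 1078 from E11.5 to E12.5, each without the 5 arrays with the fewest detected probes, and 1406 from E10.5 to E11.5 with no batch term. E10.5 was in batch 1 and its neighbours were not, so its steps rested on NSB replicate 3, with SEs of the Hoxd probes of 0.480 to 1.238 from E9.5 to E10.5.

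At the end of axis elongation, in E13.5 CNH, the 6 probes from Hoxd1 to Hoxd9 were called lower than at E9.5, and the count depended on how batch was treated. Hoxd9 fell by 2.16 (SE 0.582, adjusted p = 0.0107) by ILMN_2800183 and by 3.44 (SE 0.768, adjusted p = 0.00276) by ILMN_1216475, which was undetected on E13.5 CNH replicate 2. Hoxd8 fell by 1.32 (SE 0.330, adjusted p = 0.00649), Hoxd3 by 1.06 (SE 0.298, adjusted p = 0.0139) and Hoxd4 by 1.04 (SE 0.326, adjusted p = 0.0245), each with both E13.5 arrays below both E9.5 arrays. Hoxd1 was detected at neither stage, so the size of its change was not measured. Its fitted value was called lower (adjusted p = 0.00874) and turned sign with cyclic loess normalisation. Hoxd12 (ILMN_2951852) rose by 2.29 (SE 0.302, adjusted p = 1.3e-05) and Hoxd13, undetected at E9.5 and on 1 of 2 E13.5 arrays, was called higher (adjusted p = 0.0349), while Hoxd10 differed by 0.06 (SE 0.325, adjusted p = 0.919). In either direction 8 of 11 Hoxd probes were called, beside 23% of all probes, and 2 with BeadChip as a random block, 3 with cyclic loess and 4 with no batch term. Lower were 6 Hoxd probes, beside 2706 of all, and higher were 2, beside 2294 of all. The median difference was -1.04 over the Hoxd probes and -0.12 over all, and with cyclic loess the median over all was 0.12.

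Some markers of other tissues were also called between these stages, where 23% of all probes were called in either direction. Counts near that share do not set a list apart. Of the surface ectoderm list 3 of 6 probes (Krt14, Trp63 and Cldn4) were higher at E13.5, with a summed level of 4211 to 4261 (Krt14 the brightest) against 296 to 320 at E9.5 (Grhl3 the brightest, Krt14, Trp63 and Krt15 undetected). Of the node and notochord list 3 of 7 probes, all of Noto, were lower, with a summed level of 1194 to 4709 against 1775 to 1916 and Shh the brightest at both stages. Of the streak and tail bud list 2 of 5 were lower (Wnt3a and Fgf8), with 10682 to 20063 against 26146 to 27017 and T the brightest. Of the blood list 2 of 6 were lower, both of Hbb-bh1, with 8395 to 20438 at E13.5. Of lateral and ventral mesoderm 1 of 8, Bmp4, was higher, and of anterior neural markers 1 of 3, Otx2, detected at neither stage. Of the endoderm and neural lists limma called 0, with 0 at unadjusted p below 0.05 in each. Their part in the Hoxd differences was not tested.

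The E13.5 calls other than that of Hoxd12 (ILMN_2951852) depended on single arrays. The count fell from 8 to 3 without E13.5 CNH replicate 2, the array with the fewest detected probes, to 3 without E9.5 CNH replicate 1 or without E9.5 CNH replicate 2, and to 5 without E13.5 CNH replicate 1. Without E13.5 CNH replicate 2, Hoxd9 differed by -1.49 (adjusted p = 0.128) by ILMN_2800183 and by -2.14 (adjusted p = 0.0613) by ILMN_1216475, and Hoxd3 by -0.62 (adjusted p = 0.184). The Hoxd13 call was lost without any of these 4 arrays (adjusted p up to 0.18). It was also lost with cyclic loess, no batch term, batch removed before the fit, BeadChip as a block, no filter, a replicate block and batches 2 and 3 alone (adjusted p 0.0504 to 0.407). In batches 2 and 3 alone, which held all of both regions, 4 probes were called, with Hoxd8 at -1.32 (adjusted p = 0.00926) and Hoxd12 (ILMN_2951852) at 2.29 (adjusted p = 0.000958). In the last step, from E12.5 to E13.5, 5 Hoxd probes were lower, beside 984 of all (4.53%). They were the probes of Hoxd1, Hoxd3, Hoxd4, Hoxd8 and 1 of Hoxd9 (ILMN_1216475), and 0 were called without E13.5 CNH replicate 2 or without E12.5 CNH replicate 2, 3 without E12.5 CNH replicate 1 and 0 in batches 2 and 3 alone. The count was also 0 with no batch term, 1 with cyclic loess or with detected probes as a covariate, 3 without the 5 arrays with the fewest detected probes and 4 with offset 100 or batch removed before the fit. In this step 1 of 6 blood and 1 of 8 lateral and ventral mesoderm probes were higher, and 3 of 7 node and notochord and 1 of 5 streak and tail bud probes lower, and their part in the result was not tested.

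**Figure D4:**
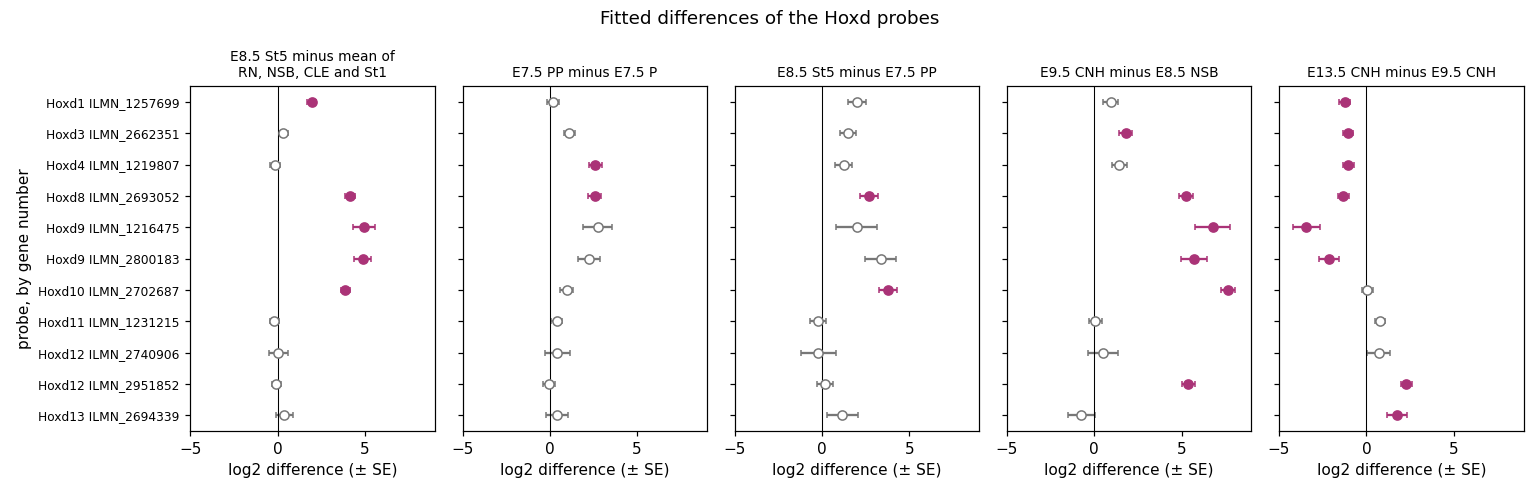
Fitted log2 differences (points) with SE (bars) of the 11 Hoxd probes by gene number for 5 comparisons; filled points were called at adjusted p at most 0.05 and fold at least 1.5. St5 differs from the other E8.5 regions in Hoxd1, Hoxd8, Hoxd9 and Hoxd10 but Hoxd3 and Hoxd4 were not called, and at E13.5 Hoxd9 is lowest against E9.5 (-3.44 and -2.16, neither called without E13.5 CNH replicate 2) while Hoxd12 is higher (2.29).

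Within the tail bud, P-CNH was compared with CNH on each day both were taken. Hoxd members were not called on any of these days. At E9.5 limma called 0 Hoxd probes, with 1 at unadjusted p below 0.05, beside 37 of all (0.17%). That probe was Hoxd12 (ILMN_2951852), lower in P-CNH (9.45 and 8.15) than in CNH (10.12 and 10.17), with a fitted change of -1.34 (SE 0.302, adjusted p = 0.0927). The call was made without E9.5 P-CNH replicate 1 (-2.19, adjusted p = 0.00126). At E10.5, within batch 1, 0 were called by limma and 0 had unadjusted p below 0.05, beside 69 of all (0.318%). At E11.5 limma called 0, with 1 at unadjusted p below 0.05, beside 35 of all (0.161%), and leaving out replicate 2 of A or CLE, replicate 1 of E11.5 CNH or either E12.5 CNH array gave 1, and leaving out replicate 2 of E11.5 P-CNH gave 2. The change of the P-CNH difference from E9.5 to E11.5 gave 0 Hoxd probes by limma, with 2 at unadjusted p below 0.05, beside 6 of all (0.0276%), and 1 without E9.5 P-CNH replicate 1. Node and notochord markers were lower in P-CNH (3 of 7 probes at E9.5, 6 of 7 at E10.5 and 1 of 7 at E11.5). Blood markers were lower in P-CNH at E9.5 (2 of 6 called, 6 of 6 at unadjusted p below 0.05), 1 of 6 was called in the change from E9.5 to E11.5, and 1 of 9 endoderm probes was lower at E10.5, and their part in the result was not tested.

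The same groups in the Hoxa, Hoxb and Hoxc clusters had 20 genes in the table, of which 18, with 28 probes, were tested. In St5 against the 4 other E8.5 regions together 5 of these probes were higher. They belonged to Hoxa9 (3.46 by ILMN_2645155), Hoxc9 (2.98), Hoxc10 (at least 3.04-fold) and Hoxa11 (at least 1.45-fold). From PP to St5 2 were higher, Hoxc9 (at least 47.2-fold) and Hoxc10 (at least 3.45-fold). From NSB to E9.5 CNH 7 were higher, led by Hoxc10 (at least 133-fold) and Hoxc9 (4.53), and from NSB to E10.5 CNH 12 were higher. From E9.5 to E13.5 CNH 12 were lower and 2 higher, Hoxc13 (2.69) and Hoxc12 (at least 2.61-fold). Apart from the last comparison only probes called higher are given here. The difference between Hoxd genes and these genes was not tested.

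Among other genes of the Hox system, the caudal factors Cdx1, Cdx2 and Cdx4 had 4 probes. Cdx4 was higher in PP than in P (at least 3.02-fold) and in NSB than in P (at least 3.61-fold). Cdx1 was lower in St5 than in the other E8.5 regions (-1.63) and in E9.5 CNH than in NSB (-5.47 by ILMN_2725801). All 4 probes were lower at E13.5 than at E9.5, beside 2706 of all 21712 probes. Of 21 probes of the cofactors Pbx, Meis and Pknox, limma called 0 in St5 against the other E8.5 regions, with 2 at unadjusted p below 0.05, and 0 in PP against P, with 3, and 1, Meis2, was lower in E9.5 CNH than in NSB (-3.12). In or beside the HoxD cluster, 4 other genes were tested. The long noncoding RNA Haglr (symbol 6720416L17Rik in the table), which lies between Hoxd4 and Hoxd1, was higher in E9.5 CNH than in NSB (at least 2.75-fold) and was at least 1.64-fold lower at E13.5 than at E9.5. Mtx2, past the 3′ end, was at least 1.59-fold higher in E9.5 CNH than in NSB. All probes of Evx2 and Lnp, past the 5′ end, were undetected on the 36 arrays.

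Fitted means over the 16 regions were compared between members as a description, with n = 16 regions that share their arrays. Between genes next to each other Pearson r was 0.519 for Hoxd1 and Hoxd4, 0.945 for Hoxd4 and Hoxd3, 0.859 for Hoxd3 and Hoxd8, 0.981 for Hoxd8 and Hoxd9 and 0.908 for Hoxd9 and Hoxd10. Further to the 5′ end it was 0.391 for Hoxd10 and Hoxd11, 0.471 for Hoxd11 and Hoxd12 and 0.673 for Hoxd12 and Hoxd13 (ILMN_2800183 for Hoxd9 and ILMN_2951852 for Hoxd12). Hoxd11, the least detected, had the lowest values, with r of at most 0.471 to any other Hoxd probe, and Hoxd1 had at most 0.718. Of 16769 other probes whose fitted means spanned at least 1, those most like Hoxd10 were Hoxa11s (r = 0.990) and Hoxc10 (0.985). Nearest to Hoxd1 were Hoxa11 (0.935) and Bves (0.922). For Hoxd3 they were Mllt3 (0.966) and Hoxc6 (0.960), and for Hoxd4 Il17rd (0.973) and Hoxb7 (0.967). The Hoxd8 pattern was nearest to Antxr2 (0.952) and Irgm1 (0.945), that of Hoxd9 to Wnt5a (0.944) and Hey2 (0.930), and that of Hoxd12 to Gcap26 (0.978) and Slc35b2 (0.977). The weakly detected Hoxd11 and Hoxd13 had Kif1c (0.867) and Tinagl1 (0.860), and Ncf4 (0.886) and Zfp672 (0.883).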

How the data were processed

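The 36 arrays lay on 6 BeadChips, 6 on each, and each measured RNA of a pool of embryo pieces. The authors deposited, per probe and array, the intensity on a linear scale, neither background-corrected nor normalised, and a detection p-value. The values that the authors made with lumi (version not given) were not used here. From the deposited intensity, the function neqc (normexp background, offset 16, quantile normalisation) gave log2 values, in limma 3.58.1 under R 4.3.3. Of 45281 probes, 21712 with detection p-value below 0.01 on at least 1 array were tested and 23569 left out.

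All arrays entered 1 limma model with region (16) and batch (3) and 18 residual degrees of freedom. Every adjusted p is two-sided, from limma's moderated test, with Benjamini-Hochberg adjustment over the 21712 probes of a contrast. In an "at least" fold, values of the undetected group were raised to the lowest value of a detected probe on the same array, and the smaller of the bounds with and without the batch term is given. The summed level of a list adds the linear normalised values of each gene's probe with the highest mean. Alternatives chosen before the data were examined were other background, offset, normalisation, batch, filter and detection settings, a replicate block and leaving out each array. Further alternatives, 3 in number, were chosen after seeing the data, and they left out the 5 arrays with the fewest detected probes, used batch 2 alone or added a covariate, the detected probes of each array.

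The Hoxd members and all lists were chosen with earlier results of these data known. Named are all Hoxd probes, up to 4 called genes with the largest difference where a count of another Hox-system list is given, and for each member the 2 genes with the highest Pearson r over the fitted means. Promoter windows came from RefSeq, build GRCm38.p6. Figures were drawn with matplotlib 3.10.9.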

Additional observations from a re-analysis of the deposited data

Results flagged for a closer look

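The difference of the regions at the caudal end, (St5 minus NSB) at E8.5 and (PP minus P) at E7.5, was tested in limma for a change between stages. P was a broad piece that included the primitive streak, so it was not a match of NSB. Probes of 3 Hoxd genes were called, beside 385 of all probes (1.77%). The fitted change was 2.98 for Hoxd10 (ILMN_2702687), 2.30 for Hoxd8 (ILMN_2693052) and -2.63 for Hoxd4 (ILMN_1219807). All 3 were undetected in P, and in NSB Hoxd10 was undetected and Hoxd8 was detected on 1 of 3 arrays, so the size of the changes was not measured. The Hoxd4 call was lost with no background correction (-1.54, adjusted p = 0.0843), offset 100 (-1.50, adjusted p = 0.0662), cyclic loess (adjusted p = 0.0658) and batch removed before the fit (-2.01, adjusted p = 0.0697). With cyclic loess the calls of Hoxd8 (adjusted p = 0.0885) and Hoxd10 (adjusted p = 0.055) were lost too. The Hoxd8 call was also lost without PP replicate 2, NSB replicate 1 or St5 replicate 2. PP lay in batch 3 and P in batch 2, whereas St5 and 2 of 3 NSB arrays lay in batch 1. Stage and batch of the 2 differences cannot be told apart beyond the batch term, and stage cannot be told apart from the pieces taken.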

How the results depend on the processing

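Most groups had 2 arrays, and NSB replicate 3 alone linked batch 1 to the others. Removing background correction, an offset of 100, cyclic loess, other batch and filter settings and leaving out each array were tried. Where that left a group with 1 array, the array was assumed to vary like the other groups, and leaving out NSB replicate 3 gave no value across batch 1. Signal over background, from 2.28 (CLE replicate 1) to 15.1 (PP replicate 2), limits low values. Of the differences of single probes, 1036 kept direction and side of the threshold, 78 fell below it, 61 passed it and 11 turned sign, and with 1 array left out these were 3444, 78, 43 and 5. The causes were not tested. The first day of detection moved for Hoxd10 from 8.5 to 7.5 under both alternatives (detection p-value below 0.05, or at least 1 array) and for Hoxd13 from E10.5 to 8.5 (at least 1 array). Hoxd11, with 0 regions, had 1 (p-value below 0.05) and 4 (at least 1 array).

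Counts of called Hoxd probes moved as follows. PP minus P (2) was 4 with cyclic loess and with no batch term, 3 with batch differences removed before the fit, 6 without the 5 arrays with the fewest detected probes and 2 to 5 with 1 array left out. St5 minus PP (2) was 4 with no background correction or offset 100, 3 with cyclic loess or no filter, 5 with no batch term or batch removed before the fit, 6 with BeadChip as a block, without the 5 arrays or with detected probes as a covariate, and 2 to 5 with 1 array left out. E13.5 minus E9.5 CNH (8) was 3 with cyclic loess, 4 with no batch term or batches 2 and 3 alone, 2 with BeadChip as a block, 7 with offset 100, batch removed before the fit, no filter or a replicate block, 9 without the 5 arrays, and 3 to 9 with 1 array left out. P-CNH minus CNH (0) at E9.5 was 1 with offset 100 and without the 5 arrays, and 0 to 1 with 1 array left out. At E11.5 it (0) was 1 with cyclic loess, without the 5 arrays and with the covariate, and 0 to 2 with 1 array left out. The change from (PP minus P) to (St5 minus NSB) (3) was 1 with cyclic loess, 4 with no background correction, offset 100 or the stricter filter, 5 without the 5 arrays, 6 with the covariate and 2 to 5 with 1 array left out. The change of P-CNH minus CNH (0) was 1 without the 5 arrays and 0 to 1 with 1 array left out. St5 minus RN (5) and St5 minus St1 (5) were 4 with no batch term. St5 minus CLE (4) was 5 with no background correction, offset 100, no batch term, batch removed before the fit, BeadChip as a block, without the 5 arrays and with the covariate. PP minus A (5) was 4 with offset 100 and 6 with batch removed before the fit or without the 5 arrays, and P minus A (1) was 3 without the 5 arrays. NSB minus P (2) was 3 with batch removed before the fit or without the 5 arrays. E9.5 CNH minus NSB (6) was 7 with no background correction, offset 100, the stricter filter, no filter or the covariate, 8 with batch removed before the fit or without the 5 arrays, and 5 with cyclic loess. E9.5 CNH minus CLE (7) was 6 with cyclic loess, no batch term, BeadChip as a block or without the 5 arrays. E10.5 CNH minus NSB (9) was 8 with no background correction or offset 100, 7 with no filter and 10 without the 5 arrays, and with cyclic loess or batch removed before the fit it was 9 with Hoxd13 in place of Hoxd4. E9.5 CNH minus P (8) was 7 with offset 100, cyclic loess, no batch term, batches 2 and 3 alone or without the 5 arrays. With 1 array left out St5 minus the mean of the other regions gave 5 to 5, NSB minus P 2 to 2, E9.5 CNH minus NSB 6 to 8, E10.5 CNH minus NSB 7 to 10, E9.5 CNH minus P 7 to 8 and P-CNH minus CNH at E10.5 0 to 0.

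Signs turned for uncalled Hoxd4 in St5 minus the mean of the other regions (-0.15; 0.09 with no batch term, 0.02 with BeadChip as a block, -0.53 to 0.22 with 1 array left out, highest without St5 replicate 1) and Hoxd1 in PP minus P (0.18; -0.06 with offset 100, -0.00 with a replicate block, -0.05 to 0.37 with 1 array left out, with -0.00 without PP replicate 1). They turned for Hoxd1 in E9.5 CNH minus NSB (0.95; -0.40 with no batch term, -0.21 with BeadChip as a block) and in E13.5 minus E9.5 CNH (-1.25; 0.10 with cyclic loess), and for Hoxd10 in E13.5 minus E9.5 CNH (0.06; -0.25 with BeadChip as a block, -0.02 with a replicate block, -0.04 without the 5 arrays, -0.03 with the covariate, and -0.04 to 0.19 with 1 array left out, with -0.02 in another such fit).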
